A study of Homo sapiens with 12 samples.

Results

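GATA2, GATA3, GATA4, GATA5 and GATA6 are the 5 GATA factor genes described here, out of 20037 protein-coding genes in the RefSeq table for GRCh38.p14. Each was taken by name and not by a cut on its values, although earlier results of these data were known. Its gene body with 20 kb on either side is called its window below. The windows were read in peak lists of CUT&Tag libraries, in which an antibody guides a transposase to chromatin and the released fragments are sequenced. One antibody recognised histone H3 trimethylated at lysine 27 (H3K27me3), and the other recognised succinylated lysine on any protein (Ksu). The cells were HepG2/C3A, a single hepatocellular carcinoma line with hepatocyte traits, grown in DMEM. They received 10 mM sodium succinate dissolved in sterile water for 48 h or served as control, which the design text calls vehicle. Of 12 samples, 8 had peak lists, with 2 libraries labelled as biological replicates for each antibody and treatment, and 4 IgG samples were not used here. The title of the series concerns succinylation, Jumonji demethylases and repressive chromatin, so the question at these genes was how far each mark extended and whether its extent differed after succinate.

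GATA factors are zinc finger proteins that bind DNA at the short motif that gives the family its name. GATA1, GATA2 and GATA3 are known mainly from blood, with GATA2 acting in stem and progenitor cells and GATA3 in T cells, while GATA4, GATA5 and GATA6 are known from the heart and the gut endoderm, and GATA4 and GATA6 act in the early liver. H3K27me3 is written by Polycomb repressive complex 2 and often lies in broad domains over developmental regulators that a cell type keeps silent, and Jumonji demethylases can remove it. Lysine succinylation adds an acidic succinyl group, usually from succinyl-CoA, to lysines of histones and other proteins.

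The libraries differed in ways that touch every value below. H3K27me3 lists held 19133 and 5813 peaks in control replicates 1 and 2 and 9985 and 5531 in succinate replicates 1 and 2, and they covered 6.45%, 3.79%, 5.61% and 4.52% of the chromosomes. Ksu lists held 76702 and 382019 peaks in control against 294568 and 629903 in succinate, and covered 2.60%, 6.0%, 6.10% and 10.7%. The weakest listed Ksu peak had a total signal of 8977, 76.0, 4247 and 49.0 steps in these libraries, a step being the smallest unit of the signal in a library. Read depth is unknown from peak lists, and the part of these differences in the results was not tested. Peaks were also limited to equal numbers or to a common weakest signal. Neither limit made the cover of the libraries equal, so neither can decide that part. None of 10 hepatocyte genes, among them ALB and APOA1, had an H3K27me3 peak over its body in any library (0 of 10), but neither did 74.96% of all protein-coding genes or 4 of 8 genes of other cell types, so these lists say little of the labelled cell type.

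H3K27me3 lay over the bodies of 4 of the 5 GATA genes in every one of the 4 H3K27me3 libraries, and the exception was GATA2. Over all protein-coding genes, 12.3% had a peak over the body in every library. GATA3 and GATA5, 2 of the 5, were wholly under the mark in every library, against 2.72% of all genes. When peaks below 330250 steps, the highest of the 4 lowest listed signals, were left out of every library, these 2 were the members still covered in all 4, against 8.84% of all genes. The mean share of the window under H3K27me3 peaks over the 4 libraries was 100% for GATA5, 92.6% for GATA3, 39.2% for GATA2, 24.7% for GATA4 and 14.9% for GATA6, and the median of all genes was 0. The ranges of neighbours in this order did not overlap over the 4 libraries, and the closest values were the lowest of GATA4, 18.9%, and the highest of GATA6, 16.3%. The share of all gene windows with a lower mean was 81.0% for GATA6, the least covered member, and 99.9% for GATA5.

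**Figure D1:**
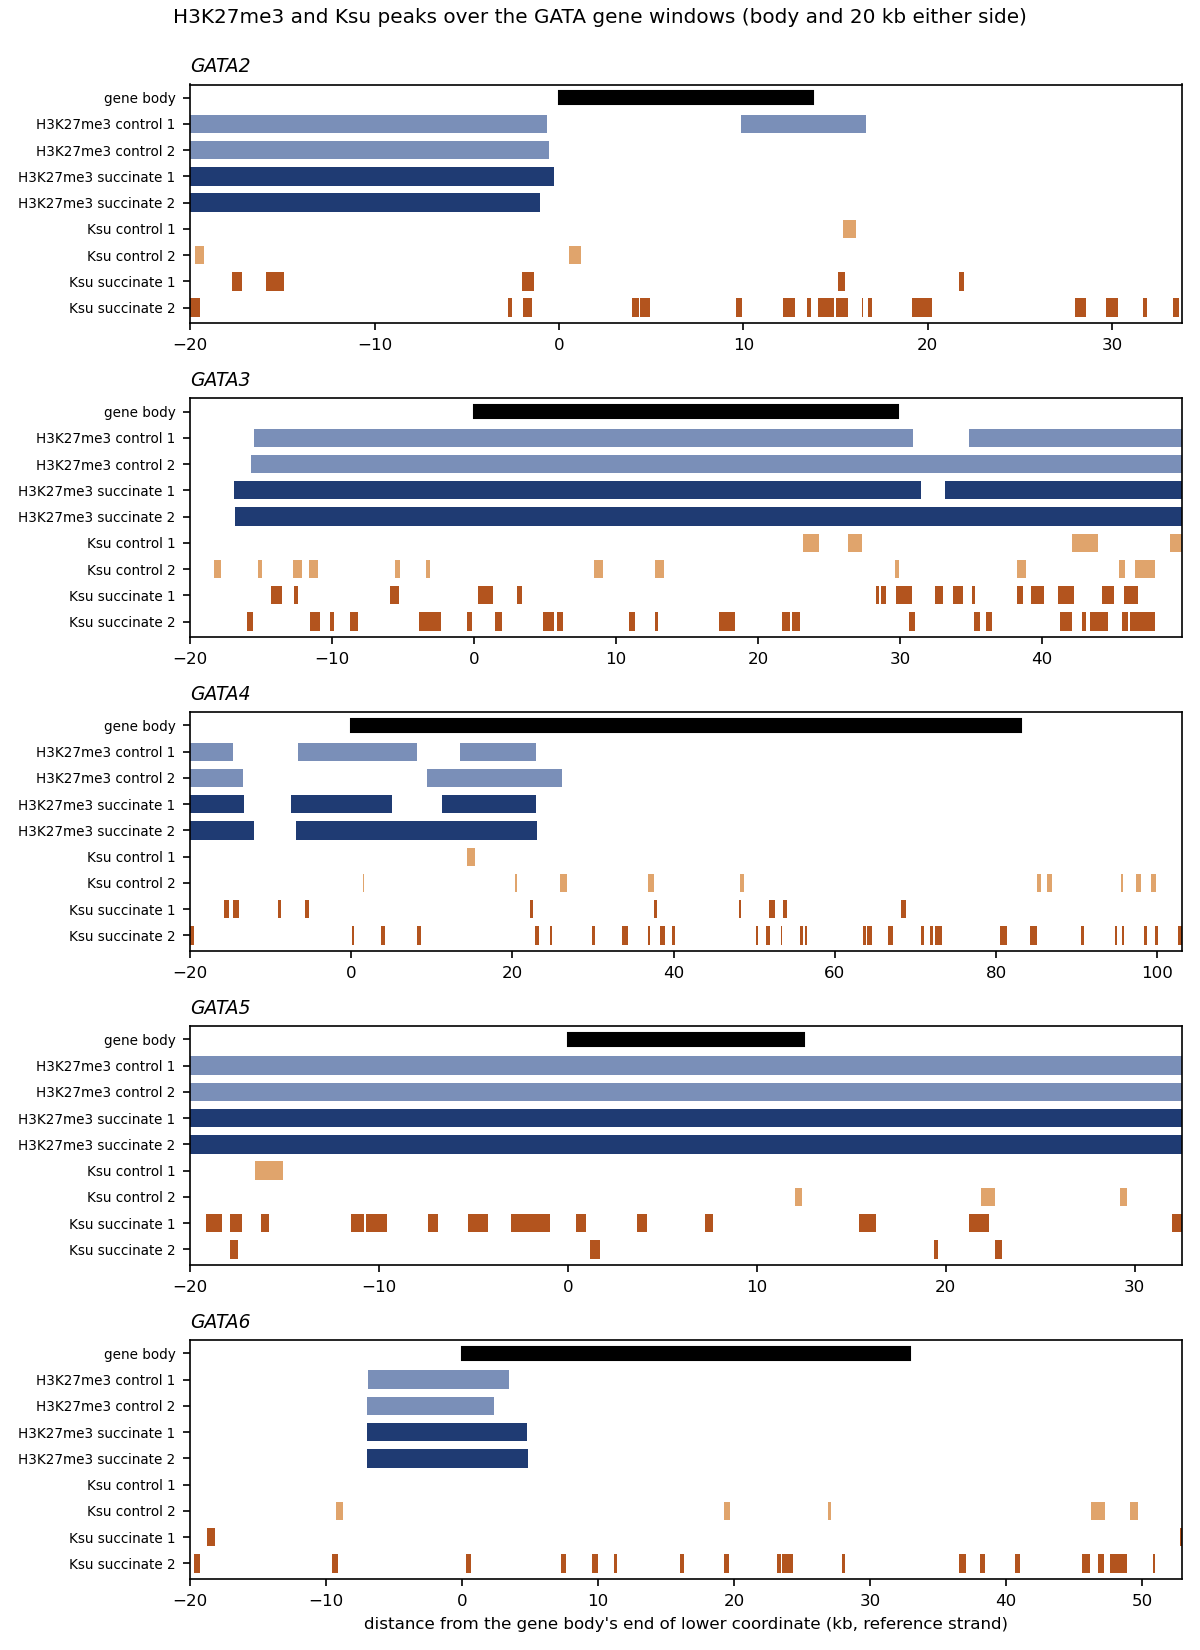
H3K27me3 peaks (blue) and Ksu peaks (orange) in each of the 8 libraries over the windows of the 5 GATA genes, with the gene body as a black bar; the x axis is the distance in kb from the end of the body with the lower coordinate, on the reference strand. GATA5 and GATA3 lie under the blue bars, GATA2 lies beside one, and GATA4 and GATA6 are covered at 1 end only.

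GATA3, the factor of T cells and of several epithelia, has its body at chr10:8045333-8075198 on the plus strand. H3K27me3 peaks covered 100% of the body in every library. They covered 87.9% and 93.9% of the window in control replicates 1 and 2 and 93.1% and 95.5% in succinate replicates 1 and 2. The peak holding the gene was 46377 and 88560 bp long in control against 48366 and 70986 bp in succinate, so its length varied within each treatment. Its total signal ranked 146 of 19133 and 95 of 5813 peaks in control against 268 of 9985 and 219 of 5531 in succinate. The highest signal lay inside the body, between 8048306 and 8048312, in 3 of the 4 libraries, and at 8039262, before the gene, in succinate replicate 2. The antisense gene GATA3-AS1 and the noncoding genes LOC105376394 and LOC105376395 were likewise wholly covered in every library.

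RefSeq gives 6 promoter windows for GATA3, each of 250 bases before and 50 after a transcription start, and all 300 bp of each were under H3K27me3 in every library. Of 35116 such promoters on the chromosomes, 8.10% had an H3K27me3 peak in every library. The first and the most CpG-rich window are shown as examples of start sites that one domain covered, with each CG pair in capitals (GRCh38.p14, plus strand, 5′ to 3′, at chr10:8045083-8045382 and chr10:8053391-8053690).
GATA3 first start: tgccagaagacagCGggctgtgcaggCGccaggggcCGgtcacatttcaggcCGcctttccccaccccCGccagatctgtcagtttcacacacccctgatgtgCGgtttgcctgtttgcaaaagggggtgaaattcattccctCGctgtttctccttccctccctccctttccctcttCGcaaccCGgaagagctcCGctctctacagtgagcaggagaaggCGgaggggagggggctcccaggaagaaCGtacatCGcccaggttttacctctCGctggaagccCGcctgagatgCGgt
GATA3 CpG-rich start: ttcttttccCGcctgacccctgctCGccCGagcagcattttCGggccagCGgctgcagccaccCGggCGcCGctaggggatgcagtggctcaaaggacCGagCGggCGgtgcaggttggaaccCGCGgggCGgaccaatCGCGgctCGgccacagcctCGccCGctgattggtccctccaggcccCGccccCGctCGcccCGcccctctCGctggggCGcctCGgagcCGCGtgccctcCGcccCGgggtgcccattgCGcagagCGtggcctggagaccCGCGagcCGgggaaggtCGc
These windows hold 16 and 36 CG pairs, with G and C making up 60.7% and 74.7% of bases, against medians of 14 pairs and 58.7% over all promoters. Ksu peaks reached 2 of the 6 windows, in succinate replicate 2 alone, over 101 bp of the first window and 109 bp of the window at chr10:8050986-8051285. Among all promoters 29.1% had a Ksu peak in any library.

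GATA2, a factor of blood stem cells and endothelium, lay beside an H3K27me3 domain instead of under it. Its body is at chr3:128479422-128493201, and the gene runs on the minus strand, so its starts are at the end with the higher coordinate. A single peak of 53128 and 53571 bp in control against 54473 and 51339 bp in succinate ended short of the gene, 654, 524, 283 and 1012 bp below the 3′ end of the body. The edge thus lay within 1012 bp of the gene in every library, and DNAJB8, which encodes a heat shock protein of the DnaJ family, was wholly covered in all of them. The highest signal of that peak lay between 128456067 and 128456070 in every library, and its rank was 175 of 19133, 211 of 5813, 240 of 9985 and 281 of 5531. GATA2 window cover was 48.7% and 36.2% in control against 36.7% and 35.3% in succinate. The higher value of control replicate 1 came from a second peak of 6821 bp at chr3:128489268-128496088, which lay over the upper start and over 48.7% of the antisense gene GATA2-AS1. That peak had 1.18 times the lowest total signal listed in its library and ranked 16368 of 19133. Body cover of GATA2 was therefore 28.5% in control replicate 1 and 0 in the other 3 libraries.

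RefSeq gives 2 promoter windows for GATA2, shown because they are the starts that the neighbouring domain did not reach, with CG pairs in capitals (GRCh38.p14, minus strand, 5′ to 3′, at chr3:128493152-128493451 for the upper start and chr3:128488481-128488780 for the lower).
GATA2 upper start: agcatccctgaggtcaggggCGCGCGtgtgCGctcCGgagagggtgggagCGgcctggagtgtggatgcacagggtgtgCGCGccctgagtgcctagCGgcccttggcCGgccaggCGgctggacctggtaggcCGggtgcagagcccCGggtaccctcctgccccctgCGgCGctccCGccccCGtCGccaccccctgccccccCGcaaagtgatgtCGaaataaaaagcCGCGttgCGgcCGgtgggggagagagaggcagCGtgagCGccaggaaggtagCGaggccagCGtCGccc
GATA2 lower start: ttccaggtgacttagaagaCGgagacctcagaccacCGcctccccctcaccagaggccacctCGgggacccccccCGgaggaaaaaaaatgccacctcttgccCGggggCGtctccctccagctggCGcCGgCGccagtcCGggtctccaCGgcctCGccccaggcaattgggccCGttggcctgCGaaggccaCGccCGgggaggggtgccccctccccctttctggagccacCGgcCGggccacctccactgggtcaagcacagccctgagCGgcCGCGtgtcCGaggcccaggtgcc
They hold 29 and 22 CG pairs at 72.3% and 71.3% G and C, and 75.8% of all promoters hold fewer pairs than the upper one. All 300 bp of the upper window were under H3K27me3 in control replicate 1 and none in the other 3 libraries, and the lower window was under it in none. Neither window had a Ksu peak in any library. The nearest Ksu peaks to the upper start were in succinate replicate 2, at chr3:128492872-128493064 inside the body and chr3:128493458-128494334 beyond it.

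GATA6, which acts in early endoderm and in the liver bud, had its H3K27me3 at the 5′ end. Its body is at chr18:22169589-22202528 on the plus strand, and a single peak of 10386 and 9365 bp in control against 11821 and 11873 bp in succinate crossed the start. The edge before the gene lay between 22162577 and 22162660 in all 4 libraries, and the edge inside the gene lay at 22173045 and 22171973 in control against 22174397 and 22174469 in succinate. The libraries thus differed by how far the peak ran into the gene. The divergent noncoding gene GATA6-AS1 was wholly under the peak in every library and had no Ksu peak in any. The total signal of the peak was 4.15, 1.01, 2.03 and 1.12 times the lowest listed, and it ranked 5515 of 19133, 5777 of 5813, 5579 of 9985 and 4915 of 5531. It lay near the bottom of the list in both libraries of replicate 2 and above 71.2% and 44.1% of peaks in those of replicate 1.

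RefSeq gives 1 promoter window for GATA6, shown because it lies inside the peak of every library (GRCh38.p14, plus strand, 5′ to 3′, chr18:22169339-22169638, CG pairs in capitals).
GATA6 start: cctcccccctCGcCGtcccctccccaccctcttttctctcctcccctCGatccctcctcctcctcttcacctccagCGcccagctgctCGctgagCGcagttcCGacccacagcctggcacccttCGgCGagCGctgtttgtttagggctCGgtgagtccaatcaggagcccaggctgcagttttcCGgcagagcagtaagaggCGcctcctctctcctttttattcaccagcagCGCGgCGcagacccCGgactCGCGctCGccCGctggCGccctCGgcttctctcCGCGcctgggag
The window holds 25 CG pairs at 66.7% G and C. H3K27me3 covered all 300 bp in the 4 libraries, and no Ksu peak overlapped it in any. The 9 promoter windows of GATA2, GATA3 and GATA6 were searched on both strands for AGATAA and TGATAA, spellings of the GATA motif that can share at most an end base. Neither was found in any of the 9 windows, where 10.3% and 7.53% of all promoters hold them.

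GATA5, a factor of heart and gut endoderm, lay inside the domain with the highest total signal in 3 of the 4 H3K27me3 libraries. The body is at chr20:62463497-62475995. The peak over it was 215465 and 215864 bp long in control against 247773 and 249182 bp long in succinate. By total signal it ranked 1 of 19133 and 1 of 5813 in control, and 1 of 9985 and 2 of 5531 in succinate. By width it ranked 1, 2, 2 and 4. The signal per base was also high, at 4.56, 3.27, 4.90 and 4.32 times the median peak of each library. Within the peaks of the same chromosome those ratios were 4.20, 2.99, 4.60 and 4.02. Merged over libraries the domain ran from 62402491 to 62651672, the 8th longest of 4169 H3K27me3 regions present in every library, and also overlapped CABLES2, RBBP8NL and SLCO4A1. Its core, covered in all 4 libraries, was 215.405 kb long.

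The GATA5 domain was interrupted on the side of SLCO4A1 in control libraries and not in succinate libraries. In control the mark broke off for 1714 bp in replicate 1 and 9773 bp in replicate 2 and then went on as peaks of 25999 and 17604 bp, while in both succinate libraries it was continuous. The domain held 241 and 233 kb under peaks in control against 248 and 249 kb in succinate. The means were 237 and 248 kb (n = 2 each), 11 kb apart with a pooled SD of 4.06 kb (7.01 kb apart without control replicate 2), and the exact permutation p of 0.333 is the smallest that 4 libraries allow. The window of GATA5 itself was 100% covered in every library. Of the 4169 regions present in every library, 34.5% had more covered bases in both succinate libraries than in either control library. By the same count the GATA6 region was higher, at 10.4 and 9.37 kb in control against 11.8 and 11.9 kb in succinate. The GATA3 region of 90.471 kb was lower, at 80.2 and 88.6 kb in control against 78.2 and 71.0 kb in succinate, a direction found in 7.08% of regions. The GATA3 difference was -9.77 kb with a pooled SD of 5.53 kb (exact permutation p = 0.333), and it lay beyond the window of the gene, on the side of the higher coordinates. It was -5.58 kb without control replicate 2 and -6.17 kb without succinate replicate 2. At equal numbers of peaks control replicate 1 kept 65.1 kb, the groups overlapped and the difference was -2.26 kb.

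GATA4, which acts with GATA6 in heart and early liver, carried H3K27me3 peaks only at the end of its window with the lower coordinates. The body is at chr8:11676935-11760002. Control replicate 1 had peaks of 5768, 14774 and 9350 bp, control replicate 2 had 7699 and 16768 bp, succinate replicate 1 had 7255, 12469 and 11597 bp, and succinate replicate 2 had 9173 and 29887 bp. The long peak of succinate replicate 2 joined what were 2 peaks in both libraries of replicate 1. Every library shared cores at 11656473-11662240, below the gene, and at 11690464-11699813, inside it, and the highest signal of the inner peak lay between 11697041 and 11697044 each time. No peak reached beyond 11703125, and the neighbour NEIL2, a DNA glycosylase gene, had no H3K27me3 in any library. Body cover of GATA4 was 21.0% and 20.2% in control against 20.02% and 27.7% in succinate, so the groups overlapped. The strongest GATA4 peak ranked above 79.0%, 42.8%, 62.4% and 70.5% of the peaks of its library.

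**Figure D2:**
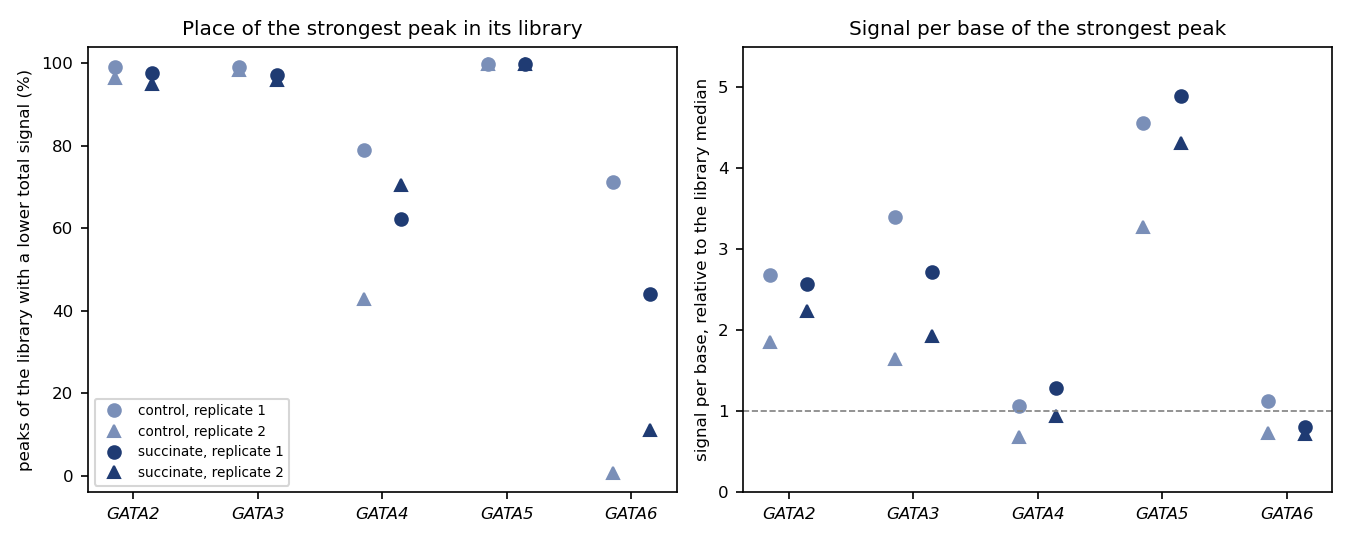
Left, for the strongest H3K27me3 peak in the window of each GATA gene, the share of the peaks of its library with a lower total signal (%); right, its signal per base divided by the median of all peaks of the library, with a dashed line at 1. Circles are replicate 1 and triangles replicate 2, pale for control and dark for succinate; GATA5 sits between 3.27 and 4.90 times the median, and GATA6 between 0.716 and 1.13 times.

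Succinate libraries had more H3K27me3 cover than control libraries, without overlap, in the windows of GATA4 and GATA6, 2 of the 5 genes. No GATA window had less in that sense, although with 50 kb flanks GATA3 had 61.7% and 68.2% in control against 60.2% and 54.7% in succinate, a difference of -7.53 points without overlap. Over all protein-coding windows 9.28% were higher and 2.01% lower by this count, and among the 8421 windows with H3K27me3 in any library 22.1% were higher. With 2 libraries a group, no difference can pass 0.05, and p-values speak only for the spread between these libraries. GATA4 window cover was 23.9% and 18.9% in control against 25.01% and 30.7% in succinate. The means were 21.4% ± 3.51 and 27.9% ± 4.04 (SD, n = 2 each), a difference of 6.44 points beside a pooled SD of 3.79 (p = 0.333, exact permutation test). The lower succinate value exceeded the higher control value narrowly, and the difference was 3.58 points without succinate replicate 2 and 3.96 points without control replicate 2. GATA6 window cover was 14.2% and 12.8% in control against 16.2% and 16.3% in succinate. The means were 13.5% ± 0.990 and 16.2% ± 0.0504 (SD, n = 2 each), a difference of 2.70 points beside a pooled SD of 0.701 (p = 0.333, exact permutation test).

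At equal numbers of peaks the GATA4 groups still did not overlap and the GATA6 groups did. For this every H3K27me3 library was limited to its 5531 peaks of highest total signal. These covered 118 and 114 Mb in control against 136 and 140 Mb in succinate, so cover stayed unequal. GATA4 then had 12% and 18.9% in control against 19.6% and 30.7% in succinate. The GATA6 peak then fell out of control replicate 2 and succinate replicate 1, leaving 14.2% and 0 in control against 0 and 16.3% in succinate. At that setting 12.2% of all windows were higher in succinate, and GATA4 was the 1 GATA window among them. For the strongest 50% of peaks in each library the GATA4 groups overlapped, at 23.9% and 0 in control against 19.6% and 24.3% in succinate. With 5 kb flanks they overlapped as well, at 24.2% and 18.02% in control against 23.2% and 30.1% in succinate. At the common lowest signal GATA4 had 0 and 13.6% in control against 19.6% and 30.7% in succinate, a difference of 18.3 points. That cut left 3514 and 3581 peaks in control against 4672 and 5531 in succinate. Their cover over all chromosomes was 93.5 and 93.4 Mb in control against 127 and 140 Mb in succinate. The share of all windows higher in succinate at that cut is not given here. GATA3 differed by 3.44 points with a pooled SD of 3.21 (0.460 points without control replicate 1, 6.43 without control replicate 2 and 2.26 without succinate replicate 2), and GATA2 by -6.45 points with a pooled SD of 6.26, and for both genes the groups overlapped (exact permutation p = 0.667 each). For GATA2 the difference was -0.23 points without control replicate 1 and -0.11 points at equal numbers of peaks, where the weak second peak of control replicate 1 was gone. The combined bases of the 5 windows were 48.3% and 45.7% covered in control against 48.3% and 50.5% in succinate, a difference of 2.37 points against a pooled SD of 1.69. At equal numbers of peaks they were 42.6% and 43.2% in control against 43.4% and 50.5% in succinate, a difference of 4.03 points.

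**Figure D3:**
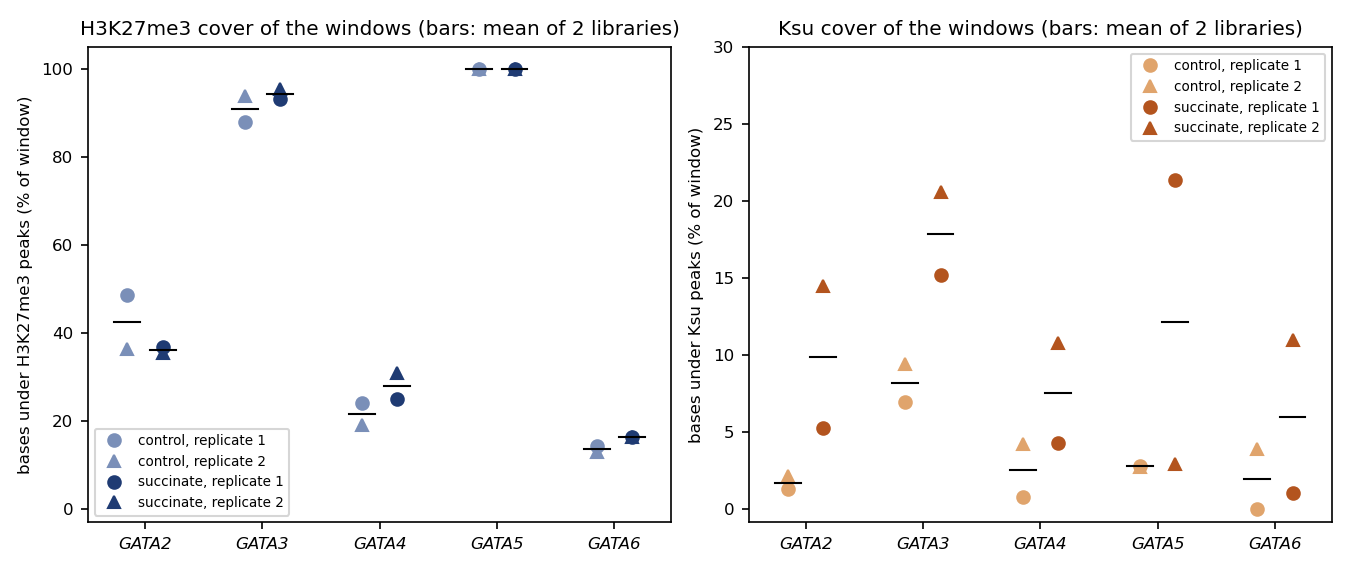
Share of each window under H3K27me3 peaks (left) and Ksu peaks (right), in % of bases, for every library; circles are replicate 1, triangles replicate 2, pale for control and dark for succinate, and bars are means of 2 libraries. GATA5 is at 100% H3K27me3 throughout, and its Ksu cover is 21.3% in succinate replicate 1 and between 2.72% and 2.89% in the other 3 libraries.

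Ksu peaks at the GATA genes were short and scattered. The windows held 177 of them over the 4 Ksu libraries, and the widest had 2067 bp. Most of the bases they covered were under a peak in 1 library only. The same count over all gene windows is not given here. Of 89153 bp under a Ksu peak in any library, 78161 bp were so in 1 library, 10601 bp in 2, 391 bp in 3 and 0 bp in all 4. GATA4, GATA5 and GATA6 had no base under Ksu in 3 libraries, and GATA3 had 295 of the 391 bp.

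Ksu cover was higher in both succinate libraries than in either control library at GATA2, GATA3, GATA4 and GATA5, 4 of the 5 windows, and lower at none. All protein-coding windows gave 65.9% higher and 0.25% lower, so the count at the GATA genes was near that of the genome. GATA3 had the highest mean Ksu cover, and the highest cover in 3 of the 4 libraries, with 6.89% and 9.41% of its window in control against 15.2% and 20.6% in succinate. Its means were 8.15% ± 1.78 and 17.9% ± 3.83 (SD, n = 2 each), a difference of 9.72 points against a pooled SD of 2.98 (p = 0.333, exact permutation test). GATA3 lay above 96.3%, 93.3%, 96.0% and 96.8% of all windows in the 4 libraries. GATA2 had 1.25% and 2.12% in control against 5.26% and 14.4% in succinate, from 1, 2, 5 and 17 peaks, a difference of 8.17 points that was 3.58 points without succinate replicate 2 (12.8 without replicate 1). GATA4 had 0.783% and 4.19% in control against 4.28% and 10.8% in succinate, from 1, 10, 10 and 30 peaks, so the groups were parted by a narrow margin. The GATA4 difference of 5.04 points was 1.79 points without succinate replicate 2 and 3.34 points without control replicate 1. GATA6 had 0 and 3.86% in control against 0.984% and 10.9% in succinate, and its groups overlapped. Over the 5 windows combined Ksu covered 2.13% and 4.60% in control against 8.22% and 12.1% in succinate, a difference of 6.78 points beside a pooled SD of 2.29. That difference was 1.09 points at equal numbers of peaks and 0.246 points at a common lowest signal of 8977 steps. That signal is the lowest of control replicate 1, which kept all its 76702 peaks. Control replicate 2 kept 2526 peaks, and succinate replicates 1 and 2 kept 42885 and 35927.

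At GATA5 the succinate libraries parted from each other. Ksu peaks covered 2.78% and 2.72% of the window in control, 21.3% in succinate replicate 1 and 2.89% in succinate replicate 2. The peaks numbered 1, 3, 14 and 4. The 14 peaks of succinate replicate 1 were spread through the window, 3 of them inside the body, and the widest at chr20:62460467-62462533 lay just below it. The share of all windows with less Ksu than GATA5 was 99.3% in succinate replicate 1 and 5.12% in succinate replicate 2. The difference between treatments was 9.36 points with a pooled SD of 9.22, and without succinate replicate 1 it was 0.14 points.

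Succinate libraries held more Ksu over the chromosomes as well, so each window was also divided by the cover of the chromosomes in its own library. The ratio for GATA3 was 2.65 and 1.57 in control against 2.49 and 1.93 in succinate, above 1 in all 4 libraries and with overlapping groups. GATA2 had 0.479 and 0.353 in control against 0.863 and 1.36 in succinate. GATA4 had 0.301 and 0.697 in control against 0.701 and 1.01 in succinate. GATA5 had 1.07 and 0.453 in control against 3.50 and 0.271 in succinate, and GATA6 had 0 and 0.644 in control against 0.161 and 1.03 in succinate. By this ratio GATA2 and GATA4 were higher in succinate without overlap, 2 of 5 windows, against 48.5% of all windows. With each Ksu library limited to its 76702 strongest peaks, GATA4 alone, 1 of the 5, was higher without overlap, against 27.3% of all windows.

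**Figure D4:**
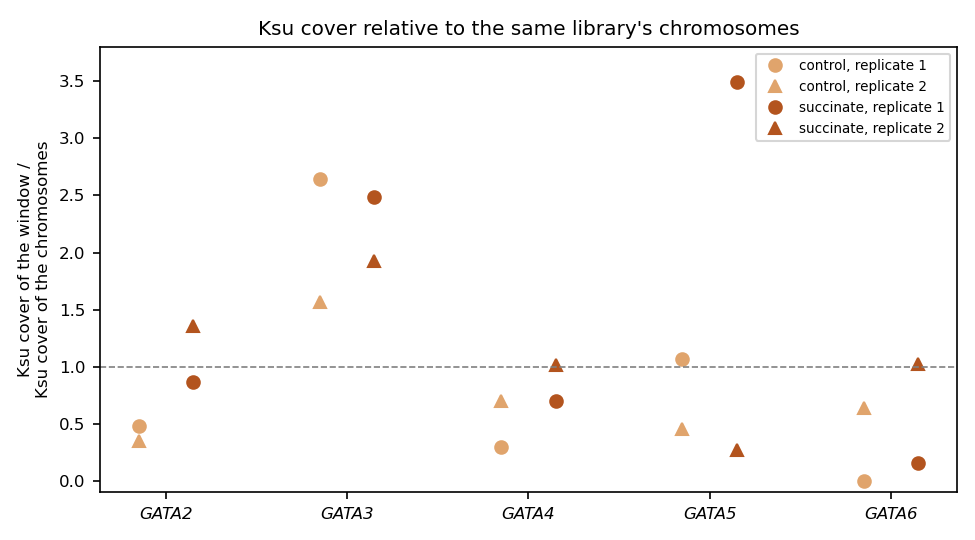
Ksu cover of each GATA window divided by the Ksu cover of the chromosomes in the same library, with a dashed line at 1; circles are replicate 1, triangles replicate 2, pale for control and dark for succinate. GATA3 lies above the line in all 4 libraries, between 1.57 and 2.65, and the 2 succinate values of GATA5 are 3.50 and 0.271.

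The marks could also be set against each other within the windows, using H3K27me3 and Ksu libraries of the same treatment and replicate number. Over the 5 windows, Ksu covered 4.40% of the bases under H3K27me3 and 0 of the other bases in control replicate 1, and 5.07% and 4.20% in control replicate 2. In succinate it covered 14.3% inside and 2.51% outside in replicate 1, and 10.2% inside and 13.9% outside in replicate 2. These combined values did not hold for each gene, and GATA5, wholly under H3K27me3, gave only inside bases. The GATA3 window of 69866 bp had 65584 and 66736 bp inside in control and succinate replicate 2, so its outside part was short. In control replicate 2, GATA3 had 9.25% inside and 11.8% outside, GATA4 had 2.78% and 4.51%, and GATA6 had 0 and 4.43%, while GATA2 had 2.53% and 1.89%. In succinate replicate 2, GATA3 had 21.5% inside and 0 outside. There GATA2 had 6.22% inside and 18.9% outside, GATA4 had 4.91% and 13.4%, and GATA6 had 2.60% and 12.6%. The H3K27me3 peak of GATA6 held no Ksu in the other 3 pairs.

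Other genes of the same lineages were read in the same way, with lists chosen with earlier results known. Among 12 hepatic endoderm factors, 2 had H3K27me3 over the body in every library and 9 in none, with a median window cover of 1.24%. Over all genes the shares were 12.3% and 74.96%, so these counts were near those of the genome. ONECUT1, a factor of early liver, had the highest window cover of that list, 25.7%, and FOXA1, a pioneer factor of endoderm, had 0. GATA4 at 24.7% and GATA6 at 14.9% thus lay between the median of these hepatic factors and their highest value. Among 10 blood and lymphoid factors, 4 were covered over the body in every library and 3 in none, with a median of 18.7%. TAL1, a partner of GATA factors in blood, reached 72.9% and its cofactor LMO2 reached 52.9%, while RUNX1 and GATA1 were at 0. Among 7 cardiac factors, 4 were covered in every library and 1 in none, with a median of 31.1%, from NKX2-5 at 77.0% and HAND1 at 47.5% to MEF2C at 0. The 5 GATA genes had a median of 39.2%.

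Of all protein-coding genes, 74.96% had no H3K27me3 over the body in any library. None of 6 other genes with a GATA-type zinc finger had it in any library either (0 of 6). That list holds GATA1 on the X chromosome and the corepressor subunits GATAD2A and GATAD2B. Of 3 cofactors, ZFPM1, which encodes the GATA partner FOG1, had H3K27me3 in every library, and LDB1 and ZFPM2 had none. The ZFPM1 window mean was 33.9%, while body cover was 2.53% and 2.35% in control against 3.02% and 9.23% in succinate. Genes of other cell types gave 2 of 8 covered in every library, with CDH5 of endothelium at 45.4% and CD3E of T cells at 43.1%. Ksu window medians had a narrower range, with 5.77% for the GATA genes, 4.73% for hepatic, 5.47% for blood and 8.63% for cardiac factors, and 5.42% for all genes.

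**Figure D5:**
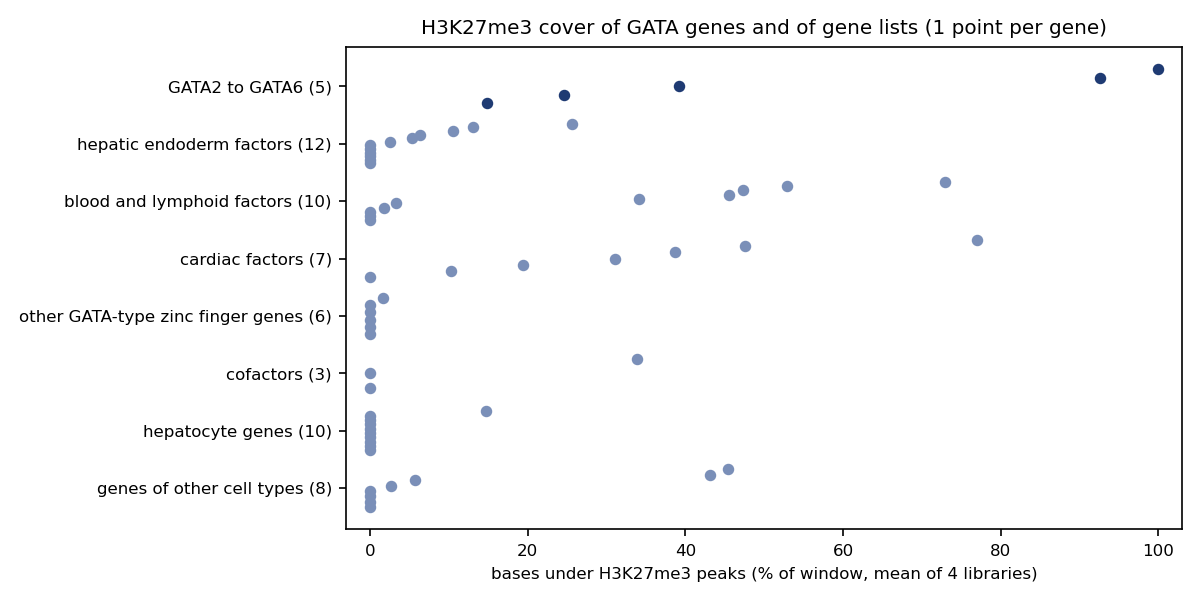
Mean H3K27me3 cover of the window over 4 libraries (% of bases, x axis) for each gene of the GATA set (dark) and of the 7 lists (pale), with the number of genes in brackets; points are spread vertically only to separate them. GATA3 at 92.6% and GATA5 at 100% lie to the right of every gene of the lists, of which NKX2-5 is the highest at 77.0%.

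The genes whose cover was most like that of each GATA gene were found by the mean absolute difference over the 8 libraries. GATA4 had the closest match, MAPK12 at 0.597 points, followed by its neighbour MAPK11 at 0.946 points. GATA5 was closest to BHLHE23 at 1.10 points, then C1QC at 1.40 and HOXC10 at 1.51 points. The windows of these 3 were wholly under H3K27me3, as the measure of likeness favours. GATA6 was closest to STIL at 1.23 points, GATA2 to CLCN1 at 1.93 points and GATA3 to CIMIP2C at 2.20 points.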

How the data were processed

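CUT&Tag libraries of H3K27me3 and Ksu came as 8 peak lists, called per library by the authors with SEACR against hg38, per the submitters' processing notes. The SEACR version, aligner, control track and threshold are not given in the sources used here, and the file names carry the stringent mode. How the signal (total and highest) was scaled before the lists were deposited is not given in the sources used here. The deposited highest signal of a peak was in whole multiples of a step in 100% of peaks, within 0.02. Total signal was not always that close to a whole number, at 8976.97 steps for the weakest listed Ksu peak of control replicate 1. The step differed between libraries, so signal heights were read within single libraries or as numbers of steps.

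Peaks on 24 chromosomes were used. Cover is the share of bases of a gene body with 20 kb either side (RefSeq, GRCh38.p14, the same build) under peaks, and presence is an overlap of at least 1 bp. Treatments were compared by the difference of means, tested by exact permutation (two-sided, 6 arrangements), and by whether groups overlapped, read against the share of all 20037 protein-coding genes. The smallest p is 0.333. No counting intervals are given, since depth is unknown. Promoter windows came from RefSeq, which in that table gave entries for GATA2, GATA3 and GATA6. Python 3.11.15, pandas 2.3.3 and numpy 2.4.6 were used, and cover and calls were tested on simulated data.

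The genes named are the members, genes overlapping their windows, the listed genes highest or lowest in H3K27me3 (up to 4 a list), and the 3 genes most like each member. Values of some listed genes are not reported here. The members, lists and tests were chosen with earlier results of these data known, and the region lengths of GATA3, GATA5 and GATA6 were added after seeing the data. Alternatives were other flanks, the body alone, equal numbers of peaks, a common lowest signal, the strongest 50% of peaks, peaks merged within 1 kb, peaks of 500 bp or more, presence at 50% of the body, a block for the replicate number, and leaving out each replicate.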

Additional observations from a re-analysis of the deposited data

How the results depend on the processing

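The H3K27me3 difference over the 5 windows (2.37 points) was 4.03 points at equal numbers of peaks, 0.523 points with 50 kb flanks, 8.29 points at a common lowest signal and 1.08 to 3.67 points with each replicate left out. Equal numbers of peaks left cover unequal, at 118 and 114 Mb in control against 136 and 140 Mb in succinate. The common lowest signal was that of succinate replicate 2, which kept all its 5531 peaks, while control libraries kept 3514 and 3581. The Ksu difference (6.78 points) was 1.09 points at equal numbers of peaks, 0.246 points at a common lowest signal, 3.54 points for the strongest 50% of peaks, 4.26 points for peaks of at least 500 bp and 4.86 to 8.71 points with each replicate left out. Of the 4 genes with H3K27me3 over the body in every library, 3 did so at equal numbers of peaks. A common lowest signal left 2, the strongest 50% of peaks left 2 and presence over 50% of the body left 2. The count was 4 with any replicate left out, but leaving out a library cannot lower it.

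The difference changed sign in 6 cases. GATA3 H3K27me3 cover was -7.53 points with 50 kb flanks. GATA6 H3K27me3 cover was -7.12 points, and its region -5.19 kb, for the strongest 50% of peaks, where it kept a peak in control replicate 1 alone. At a common lowest signal, which spared control replicate 1 alone, Ksu was -0.62 points at GATA2 and -0.065 points at GATA4. GATA2 then had 1.25% in control replicate 1 and 0 in every other library. The cause was not tested beyond the loss of weak peaks that these settings make. GATA6 Ksu ran from -0.95 to 9.01 points and GATA5 Ksu from 0.138 to 18.6 points with a replicate left out, lowest without succinate replicate 2 for GATA6 and without succinate replicate 1 for GATA5.

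With the replicate number as a block, the differences stay at 2.37 points for H3K27me3 and 6.78 points for Ksu by arithmetic, which tests nothing. The block test had 4 arrangements. For H3K27me3 cover of GATA4 and GATA6 it gave p = 0.5 (exact permutation within blocks), against 0.333 without blocks. Same-numbered libraries deviated together at 0.277 (correlation over 8421 windows) for H3K27me3 and 0.132 (19564 windows) for Ksu. With 2 pairs per antibody the numbers do not show that the libraries are paired. Depth limits every absence here: a window without a peak had none listed in its library, and the threshold of the calls is not given.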

Other observations

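GATA5, and GATA3 with its wholly covered body, were set beside 22 genes other than GATA5 whose windows were wholly under H3K27me3 in every library. Ksu covered a median of 2.53% and 4.94% of those windows in control replicates 1 and 2 and 13.9% and 15.4% in succinate replicates 1 and 2. The 11616 windows without H3K27me3 in any library had medians of 0.264%, 2.98%, 4.37% and 9.92%. In succinate replicate 2 the lowest of the 22 was 3.96%, at BHLHE23, and 0 of them were below the 2.89% of GATA5. BHLHE23 had 17.1% in succinate replicate 1, a split like that of GATA5. C1QC had 17.5% and 7.70% in succinate replicates 1 and 2, and HOXC10 had 19.5% and 10.1%. BHLHE23, C1QC and HOXC10 were picked for likeness to GATA5 in these same values. In succinate replicate 1, 21 of the 22 were below the 21.3% of GATA5. GATA3 was above 20, 21, 15 and 19 of the 22 in the 4 libraries. These are descriptions, and no test was made.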
